A study of Mus musculus with 4 samples.

Results

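The de novo purine synthesis enzymes were followed in mouse embryonic fibroblasts (MEFs) with and without Pf1. Members were the probe sets whose platform gene symbol was one of 10 enzymes: Prps1, Ppat, Gart, Pfas, Paics, Adsl, Atic, Impdh1, Impdh2 and Gmps. Of these, 9 had a probe set named for 1 gene, with 19 such probe sets among the 45101 of the table and 9 of its 18193 genes. Impdh2 had no named probe set and was not analysed here. The knockout group (Pf1 KO, genotype Pf1 -/-) held lines 2 and 4, and the wild-type group (Pf1 WT, genotype written Pf+/+) held lines 5 and 6. All 4 lines carried the prefix 7706. They were grown from embryo torsos, without head and red organs, of embryonic day 13.5 or 14.5, kept at 6% oxygen and used at passage 2 to 3, with 1 Affymetrix array per line. Pf1 is a chromatin-associated PHD finger protein, the product of Phf12, and the study asks about its part in nucleolar integrity. The labels used here give neither the allele design nor which embryo each line came from, so the p-values speak to the spread of these 4 cultures, which may be technical.

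De novo synthesis builds the purine ring on phosphoribosyl pyrophosphate (PRPP), a sugar phosphate made by Prps enzymes. Ppat commits PRPP to the pathway, and Gart, Pfas, Paics, Adsl and Atic carry the ring to inosine monophosphate (IMP). From IMP, Impdh enzymes and Gmps lead to GMP, and adenylosuccinate synthase and Adsl lead to AMP. Growing cells need both nucleotides for ribosomal and other RNA and for DNA, and several genes of the pathway are known targets of the transcription factor Myc, which binds the E-box CACGTG with its partner Max.

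Ppat and Paics are neighbours on opposite strands, and their start sites in RefSeq (build GRCm38.p6) lay 276 bases apart. Each start lay downstream of the other on the other gene's strand, so the annotated 5′ ends overlapped. Their promoter windows, 250 bases before to 50 after the start, are shown because the differences of this pair had opposite signs, beside that of Atic, the member with the largest difference. Capitals mark CACGTG, which reads the same on both strands, and all windows are written 5′ to 3′ on the strand of the gene. The windows are chr5:76951529-76951828 on the minus strand for Ppat, chr5:76951052-76951351 on the plus strand for Paics and chr1:71556906-71557205 on the plus strand for Atic.
Ppat: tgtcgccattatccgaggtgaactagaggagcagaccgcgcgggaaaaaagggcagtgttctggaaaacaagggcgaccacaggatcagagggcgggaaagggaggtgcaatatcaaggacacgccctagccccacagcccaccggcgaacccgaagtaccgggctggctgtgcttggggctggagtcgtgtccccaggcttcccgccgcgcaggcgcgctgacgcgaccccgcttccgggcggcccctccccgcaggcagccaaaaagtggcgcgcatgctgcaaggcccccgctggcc
Paics: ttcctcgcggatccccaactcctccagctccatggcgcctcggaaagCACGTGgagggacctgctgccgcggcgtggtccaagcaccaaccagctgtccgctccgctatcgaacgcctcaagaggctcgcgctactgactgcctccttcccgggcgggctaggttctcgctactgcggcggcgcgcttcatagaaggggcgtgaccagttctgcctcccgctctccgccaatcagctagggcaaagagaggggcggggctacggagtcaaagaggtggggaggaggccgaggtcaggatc
Atic: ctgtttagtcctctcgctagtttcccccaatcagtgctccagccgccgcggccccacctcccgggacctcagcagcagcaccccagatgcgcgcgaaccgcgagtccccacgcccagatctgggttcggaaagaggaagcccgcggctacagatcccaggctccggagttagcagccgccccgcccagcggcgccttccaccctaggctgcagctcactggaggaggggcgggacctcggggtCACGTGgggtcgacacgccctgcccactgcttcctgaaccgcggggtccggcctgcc
The motif began 203 bases before the start of Paics and 7 bases before that of Atic, and the Ppat window did not hold these letters. RefSeq windows were matched for 9 of the 10 enzymes by symbol, 10 windows in all since Impdh1 had 2, and the table listed none for Pfas. CACGTG was present in 3 of the 10 windows (Paics, Atic and Impdh2), against 7.15% of all 32851 promoter windows of the same length. The looser E-box CANNTG, with CACGTG left out, was in 5 of the 10 windows and in 69.78% of all windows. The median GC content was 63.67% over the enzymes' windows and 52.67% over all of them.

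The values are log2 signals centred by probe set, so each is a distance from that probe set's median over the 4 arrays, and a gene's value is the mean of its probe sets. Levels of different genes cannot be compared on this scale, and the fibroblast label could not be checked for presence of its markers, because the signal level is not kept. With 4 arrays and a median of 0, the 2 middle values of a probe set are equal and opposite by construction. In the Phf12 probe set 1434922_at, the value was -0.37 and -0.41 in KO lines 2 and 4, against 0.56 and 0.37 in WT lines 5 and 6. The KO lines lay below both WT lines there, and the other Phf12 probe set, 1453579_at, did not separate the genotypes (0.012 ± 0.0976 SE). The labels do not place either of them inside or outside the deletion. The Phf12 gene mean over its probe sets differed by -0.42 ± 0.0934 SE in the fit over genes. Its limma adjusted p of 0.0504 was just above the threshold of 0.05 used below, so Phf12 was not called as a gene.

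Across the pathway, 1 of 9 measured enzymes passed the test: Pfas rose 1.45-fold in the knockout. A gene was called at a limma adjusted p under 0.05 over all 18193 genes, which held for 12.2% of genes (5.21% higher and 6.95% lower in KO). Ppat, Gart, Adsl, Atic, Gmps and Prps1 had positive differences between 0.12 and 0.61, and Paics and Impdh1 had negative ones of -0.35 and -0.24, none of them called, which does not show that they did not differ. Without adjustment, 4 enzymes were higher and 2 lower at a limma p under 0.05, against 14.3% and 15.2% of all genes. The median difference over the 9 enzymes was 0.28, and over all genes it was -0.0027. Differences are on the log2 scale, KO minus WT, and carry the fitted standard error (SE), with 2 lines in each genotype. Fewer cells of a type and less RNA per cell cannot be told apart in such bulk samples.

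**Figure D1:**
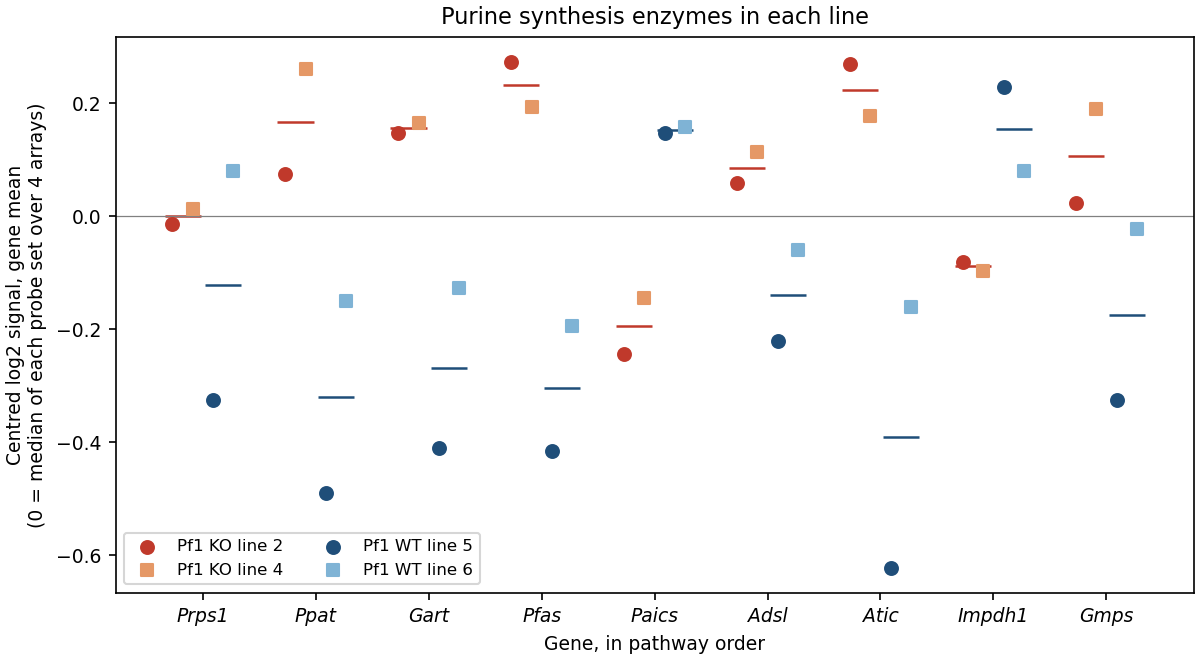
Centred log2 signal (vertical axis, gene mean) of the 9 measured enzymes in pathway order, with 1 point per line, KO lines left of WT lines, and bars at the mean of each genotype. Line 5 is the lowest point for 7 of the 9 genes, against 5531 of all 18193 genes. Paics and Impdh1 are the genes whose KO lines lie below both WT lines.

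Prps1, the synthetase that supplies PRPP, stood at -0.013 and 0.013 in KO lines 2 and 4, against -0.33 and 0.081 in WT lines 5 and 6. The KO lines lay between the WT lines, which made Prps1 the 1 member whose genotypes overlapped (difference 0.12 ± 0.15 SE, limma adjusted p = 0.666). A second probe set, 1448192_s_at, is annotated to both Prps1 and the copy Prps1l3 and was left out of the gene mean. Its difference was -0.059 ± 0.168 SE, with overlapping lines. Prps2, the other broadly expressed PRPP synthetase, differed by 0.11 ± 0.0857 SE (limma adjusted p = 0.475). The distance between the isoenzymes, Prps2 minus Prps1, was 0.10 and -0.014 in KO lines and 0.29 and -0.18 in WT lines (difference -0.012, exact permutation test, two-sided, p = 1). With 2 lines against 2 this exact test cannot go below p = 0.333, and it was run on 2 gene pairs.

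Ppat, the amidotransferase of the committed step, had gene means of 0.076 and 0.26 in KO lines 2 and 4, against -0.49 and -0.15 in WT lines 5 and 6. Both KO lines lay above both WT lines (0.49 ± 0.145 SE, limma adjusted p = 0.0948). Its 3 probe sets disagreed. Probe set 1428543_at read 0.26 and 0.45 in KO lines, against -1.01 and -0.26 in WT lines (0.99 ± 0.256 SE), the largest difference among the 19 probe sets. Probe set 1452831_s_at gave 0.65 ± 0.156 SE, whereas 1441770_at gave -0.17 ± 0.12 SE with overlapping lines, at -0.22 and 0.00061 in KO and 0.12 and -0.00061 in WT. The median of the probe sets in place of their mean gave Ppat a difference of 0.65.

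Gart encodes a trifunctional protein that acts at 3 separate steps before IMP. Its gene mean was 0.15 and 0.17 in KO lines 2 and 4, against -0.41 and -0.13 in WT lines 5 and 6. The KO lines agreed closely and lay above both WT lines, which were farther apart (0.43 ± 0.119 SE, limma adjusted p = 0.0826). All 4 Gart probe sets were positive without overlap, from 0.19 ± 0.0992 SE (1424435_a_at) to 0.67 ± 0.158 SE (1416283_at).

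Pfas, the synthase that uses glutamine to make the ring's amidine, had 1 probe set, 1455496_at. It stood at 0.27 and 0.19 in KO lines 2 and 4, against -0.42 and -0.19 in WT lines 5 and 6. Both KO lines were higher than both WT lines, by 0.54 ± 0.108 SE (limma adjusted p = 0.0412 over genes). The same values in the fit over all 45037 probe sets that were no controls gave a limma adjusted p of 0.0545, above the threshold, so the call depended on which features were fitted together. Leaving out 1 line at a time gave differences of 0.43 to 0.65 and limma adjusted p of 0.0587 to 0.216.

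Paics, the bifunctional carboxylase and synthase of the middle steps, had a difference of the opposite sign to that of its neighbour Ppat. Its gene mean was -0.24 and -0.14 in KO lines 2 and 4, against 0.15 and 0.16 in WT lines 5 and 6. The KO lines lay below both WT lines, and the WT lines nearly coincided (-0.35 ± 0.0844 SE, limma adjusted p = 0.0614). All 3 of its probe sets were negative without overlap, at -0.45 ± 0.0954 SE (1423564_a_at), -0.36 ± 0.0952 SE (1423565_at) and -0.23 ± 0.0938 SE (1436298_x_at). Quantile normalisation of the deposited values gave -0.36 with limma adjusted p = 0.049, which called Paics. The distance Paics minus Ppat was -0.32 and -0.40 in KO lines 2 and 4, against 0.64 and 0.31 in WT lines 5 and 6. The KO values of this distance were negative and the WT values positive (difference -0.84, exact permutation test, two-sided, p = 0.333, the smallest this design allows, and 0.667 after Benjamini-Hochberg adjustment over the 2 pairs). These signs were already fixed by the values of the 2 genes in each line, so the test adds nothing to them.

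**Figure D2:**
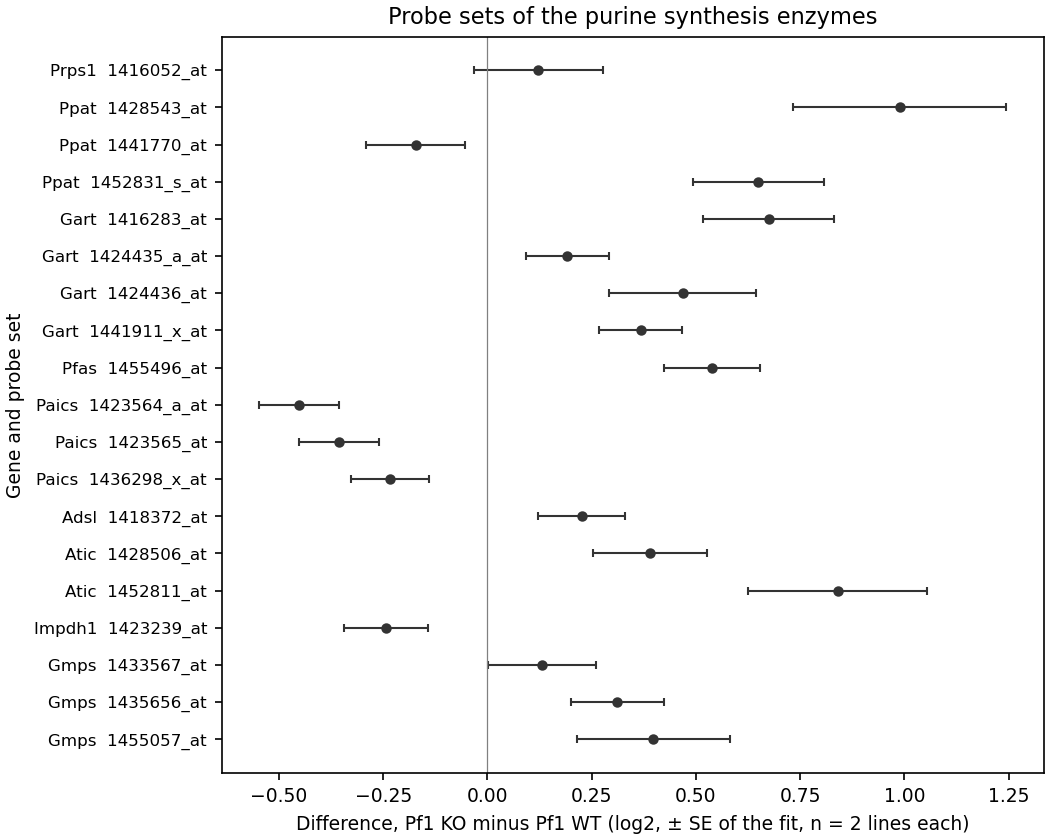
Difference between KO and WT lines (horizontal axis, log2, KO minus WT) for each of the 19 probe sets, with bars of 1 SE from the fit that held every probe set. The 4 Gart and 2 Atic probe sets are all positive, the 3 Paics probe sets are all negative, and the Ppat probe sets run from -0.17 to 0.99.

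Adsl, the lyase used on the way to IMP and again on the way to AMP, stood at 0.059 and 0.11 in KO lines 2 and 4, against -0.22 and -0.059 in WT lines 5 and 6. These lines did not overlap, and the difference was small (0.23 ± 0.095 SE, limma adjusted p = 0.196). Atic, which carries out the last formylation and closes the ring to IMP, had gene means of 0.27 and 0.18 in KO lines, against -0.62 and -0.16 in WT lines. It had the largest gene difference of the pathway, 1.53-fold, yet WT line 5 lay far below WT line 6 and the gene missed the threshold (0.61 ± 0.168 SE, limma adjusted p = 0.0794). Its probe sets gave 0.84 ± 0.216 SE (1452811_at) and 0.39 ± 0.136 SE (1428506_at).

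In the branch to GMP, Impdh1, an isoenzyme of IMP dehydrogenase, stood at -0.080 and -0.097 in KO lines 2 and 4, against 0.23 and 0.080 in WT lines 5 and 6. Both KO lines lay below both WT lines (-0.24 ± 0.0915 SE, limma adjusted p = 0.158). Gmps, which aminates xanthosine monophosphate to GMP, had gene means of 0.023 and 0.19 in KO lines, against -0.32 and -0.023 in WT lines. Its lines did not overlap, although KO line 2 and WT line 6 were close (0.28 ± 0.134 SE, limma adjusted p = 0.248). The 3 Gmps probe sets ran from 0.13 to 0.40, and the lines overlapped in 1433567_at. In the branch to AMP, Adss, an adenylosuccinate synthase outside the 10 listed enzymes, differed by 0.21 ± 0.1 SE (limma adjusted p = 0.255).

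Counted without a test, 8 of 9 enzymes had KO lines entirely above or below the WT lines, 6 above and 2 below. Over all genes that held for 58.2%, 28.7% higher and 29.5% lower in KO. Of these 8, Atic was at least 1.5-fold apart, against 9.64% of all genes in either direction, 4.11% higher and 5.53% lower in KO. Among the 19 probe sets, 12 were higher and 4 lower in KO without overlap and 3 overlapped, against 27.8% and 26.3% of all probe sets, 54.1% together. In the limma fit over probe sets, 0 of the 19 were called, against 8.32% of all probe sets (3.92% higher and 4.4% lower in KO). Without adjustment, 9 of them were higher and 2 lower at p under 0.05, against 13.2% and 12% of all probe sets, 25.2% together.

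The WT lines lay farther apart than the KO lines in most enzymes. WT line 5 lay farther from the median of the arrays than any other line in 8 of the 9 enzymes, Paics being the exception, against 35.8% of all genes. In related lists, line 5 was also farthest in 17 of 23 replication genes, 5 of 5 ribonucleotide reductase and dNTP genes and 8 of 13 pyrimidine genes. It was farthest in 14 of 28 salvage and branch genes, 4 of 9 pentose phosphate, 4 of 12 Myc network and 4 of 16 folate genes. The median gap between the 2 lines of a genotype was 0.080 for the KO lines and 0.28 for the WT lines over the 9 enzymes, against 0.095 and 0.12 over all genes. Against WT line 6 alone, the mean of the KO lines differed by 0.43 for Pfas, 0.38 for Atic, 0.32 for Ppat, 0.28 for Gart and -0.35 for Paics. Against WT line 5 alone it differed by 0.65 for Pfas, 0.85 for Atic, 0.66 for Ppat, 0.57 for Gart and -0.34 for Paics. For Prps1 the sign turned, at -0.081 against line 6 and 0.33 against line 5. The median over the 9 enzymes was 0.14 without WT line 5 and 0.43 without WT line 6.

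**Figure D3:**
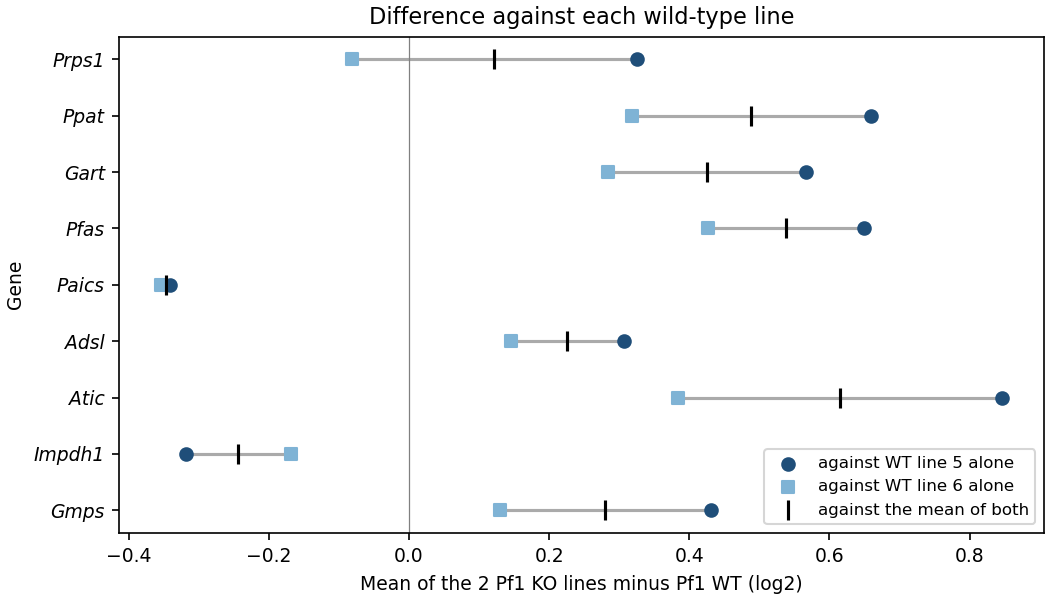
Mean of the 2 KO lines minus WT line 5 alone (circles), WT line 6 alone (squares) or the mean of both (ticks), in log2 units, for each enzyme. Paics has nearly the same difference against either WT line, -0.34 and -0.35, and Prps1 changes sign between them.

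Genes of DNA replication and proliferation had a similar order of lines. Their median over 23 measured genes was 0.064 and 0.13 in KO lines 2 and 4, against -0.39 and -0.054 in WT lines 5 and 6. WT line 5 was lowest in 19 of the 23, against 5531 of all 18193 genes. In the purine enzymes the same medians were 0.059 and 0.17 in KO lines 2 and 4, against -0.33 and -0.059 in WT lines 5 and 6. The flap endonuclease gene Fen1 was the 1 replication gene called, higher in KO (1.06 ± 0.129 SE, limma adjusted p = 0.018). Over all genes, 5.21% were called higher and 6.95% lower in KO. At a limma unadjusted p under 0.05, 8 of the 23 were higher and 0 lower in KO, against 14.3% and 15.2% of all genes. The median difference was 0.29 over the replication genes and 0.28 over the purine enzymes. Macrophage markers stood lowest in WT line 6, with medians over 8 genes of -0.27 and 0.53 in KO lines 2 and 4 and 0.38 and -1.09 in WT lines 5 and 6, and limma called 0 of the 8, with 0 at an unadjusted p under 0.05. Smooth muscle markers had medians of 0.45 and 0.29 in KO lines and -0.43 and -0.29 in WT lines, with 6 of 8 genes called higher. Of 11 fibroblast markers, 6 were called lower and 1 higher in KO, against 6.95% and 5.21% of all genes. The part of these markers in the enzymes' differences was not tested.

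Around the pathway, 28 of 32 listed genes of the AMP branch, purine salvage, interconversion and breakdown were measured, and 2 rose, 2 fell and 24 did not pass. Over all genes, 12.2% were called, 5.21% higher and 6.95% lower in KO. Before adjustment, 4 of the 28 were higher and 3 lower at a limma p under 0.05, against 14.3% and 15.2% of all genes. Itpa, which clears inosine triphosphate from the nucleotide pool, was at 0.18 and 0.19 in KO lines 2 and 4, against -0.30 and -0.24 in WT lines 5 and 6. It rose in KO, with little spread inside either genotype (0.46 ± 0.0805 SE, limma adjusted p = 0.0323). Nme1, a nucleoside diphosphate kinase, rose as well (0.65 ± 0.14 SE, limma adjusted p = 0.0475). Pnp, the phosphorylase that splits purine nucleosides, was at -0.33 and -0.49 in KO lines 2 and 4, against 0.91 and 0.33 in WT lines 5 and 6. It fell 2.05-fold (-1.03 ± 0.207 SE, limma adjusted p = 0.0406). Dguok, the mitochondrial deoxyguanosine kinase, fell 1.56-fold (-0.64 ± 0.124 SE, limma adjusted p = 0.0385). The salvage enzymes Hprt (0.24 ± 0.0836 SE, limma adjusted p = 0.136), Aprt (0.067 ± 0.0793 SE) and Adk (-0.087 ± 0.0923 SE) were not called. The list's median difference was 0.011.

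Pyrimidine synthesis had 0 of 13 measured genes called by limma, against 12.2% of all genes, with a median of 0.14. Of the 13, 2 were higher and 1 lower at a limma p under 0.05 before adjustment, against 14.3% and 15.2% of all genes. Cad, the trifunctional enzyme that opens that pathway, stood at 0.22 and 0.083 in KO lines 2 and 4, against -0.35 and -0.083 in WT lines 5 and 6, with KO above WT (0.37 ± 0.123 SE, limma adjusted p = 0.124). Umps (0.17 ± 0.153 SE) and Dhodh (-0.095 ± 0.141 SE), which act after it, overlapped between the genotypes. Folate and one-carbon enzymes supply the formyl groups that Gart and Atic use. Of 16 measured, 2 fell, 0 rose and 14 did not pass, with a median of -0.066. Over all genes, 6.95% were called lower and 5.21% higher in KO. Before adjustment, 5 of the 16 were lower and 1 higher at a limma p under 0.05, against 15.2% and 14.3% of all genes. Besides the 2 called genes, the lower ones were Psat1 (-0.73), Psph (-0.67) and Aldh1l1 (-0.44). The 2 called lower are both mitochondrial, but this did not extend to the list's other mitochondrial members. Shmt2 (-0.17), Mthfd2 (-0.076) and Mthfd2l (0.13) overlapped between the genotypes. The carrier Slc25a32 (0.43) and Gldc (0.15) were higher in KO without being called. Aldh1l2, which oxidises formyl-tetrahydrofolate, was at -1.71 and -0.997 in KO lines 2 and 4, against 1.08 and 0.997 in WT lines 5 and 6 (5.24-fold lower, -2.39 ± 0.238 SE, limma adjusted p = 0.0154). Mthfd1l, which releases formate from it, fell 1.83-fold (-0.87 ± 0.151 SE, limma adjusted p = 0.0316).

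Limma called 0 of 9 measured pentose phosphate genes, which make the ribose phosphate for PRPP, with a median of 0.031 (1 higher and 1 lower at p under 0.05 before adjustment). It also called 0 of 5 genes of ribonucleotide reductase and dNTP control, with a median of 0.22 (2 higher and 1 lower at p under 0.05 before adjustment). Over all genes, 12.2% were called, and before adjustment 14.3% were higher and 15.2% lower at a limma p under 0.05. In the Myc network, Max rose and Mxi1 fell among 12 measured genes, against 5.21% of all genes called higher and 6.95% lower in KO. Without overlap, 1 of the 12 was higher and 8 were lower, against 28.7% and 29.5% of all genes. The list's median difference was -0.15. Myc itself stood at -0.043 and -0.00036 in KO lines 2 and 4, against 0.00036 and 0.13 in WT lines 5 and 6 (-0.088 ± 0.0896 SE, limma adjusted p = 0.596). Max, the shared partner of Myc and of its antagonists, was at 0.76 and 0.35 in KO lines 2 and 4, against -0.52 and -0.35 in WT lines 5 and 6, and rose 1.99-fold (0.99 ± 0.16 SE, limma adjusted p = 0.0274). Mxi1, an antagonist that competes for Max, fell 1.92-fold (-0.94 ± 0.139 SE, limma adjusted p = 0.0241). Among the enzymes with CACGTG in their promoter window, Atic was at 0.61 and Paics at -0.35, so the measured pair had opposite signs. Neither was called, and a link of the motif or of the Myc network to the enzymes' differences was not tested.

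**Figure D4:**
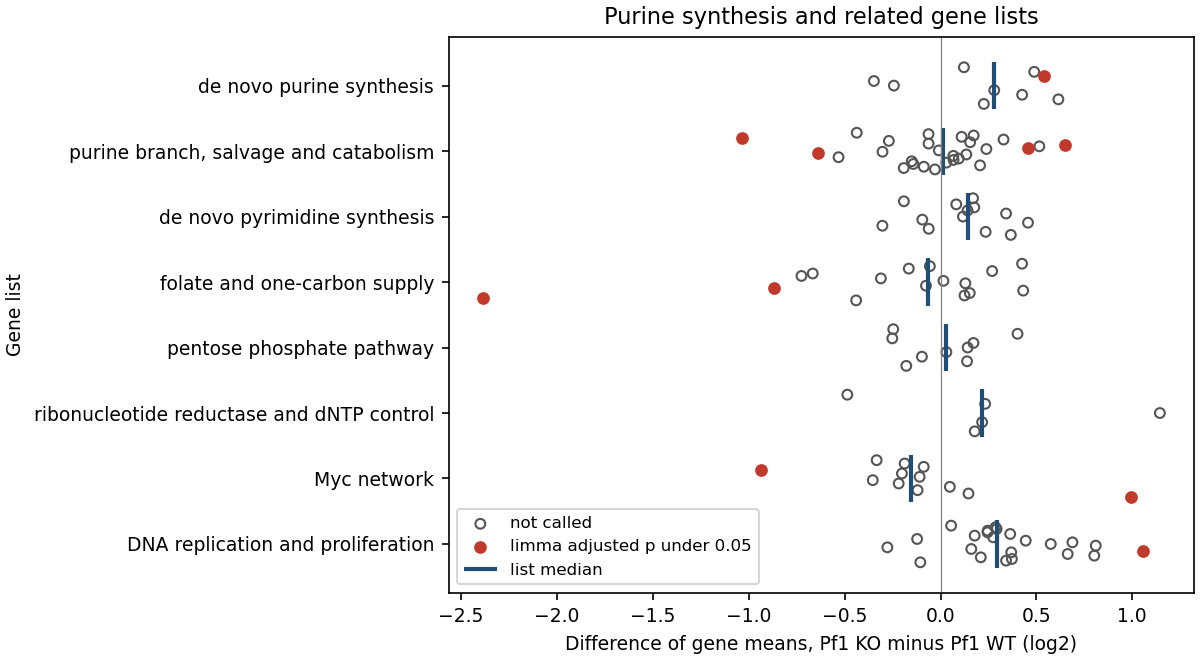
Difference of each gene (horizontal axis, log2, KO minus WT) in the purine synthesis list and 7 related lists, with filled points for genes at a limma adjusted p under 0.05 and bars at the list medians. 1 of the 9 purine synthesis genes is filled, and the largest decrease shown is that of Aldh1l2 at -2.39.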

How the data were processed

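Total RNA of 4 MEF lines, 2 per genotype, was hybridised to 1 Affymetrix array each after biotin labelling, per the labels. Affymetrix Expression Console and RMA made the deposited log2 values, per the submitters' processing notes. Their versions and the log base are not given in the sources used here. RMA implies log2. Each probe set in the deposited table had a median of 0 within 1e-06 over the 4 arrays, a centring that the labels do not describe. It removes signal levels and detection, so no filter on low values was possible and all members entered the fits. No batch is given, and depth does not apply: the number of arrays limits the precision.

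Probe sets were named through the platform annotation. Of 45101, 64 were controls and left out, 34945 had 1 gene, 932 had several and were left out of gene means, and 9160 had no gene name. Symbols were checked by Entrez identifier in RefSeq of GRCm38.p6 (34741 matched, 0 changed). Gene values are means of probe sets (18193 genes). limma 3.58.1 in R 4.3.3 (lmFit, then eBayes) gave KO minus WT over all genes and over all 45037 probe sets, without covariates, with 2 residual degrees of freedom and 3.04 (genes) or 3.22 (probe sets) prior ones. Benjamini-Hochberg adjustment ran over all features of a fit. The fits were tested on simulated data. Pairs of genes were compared with exact permutation tests in scipy 1.17.1. Comparing Impdh2 with Impdh1 was planned and not possible.

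The 10 members and all lists were chosen with earlier results of these data known. Named genes are all members, Phf12, called genes of the related lists (up to 6 per list), and Prps2, Adss, Hprt, Aprt, Adk, Cad, Umps, Dhodh and Myc. Some folate genes that were not called are named beside the called ones. Marker lists for skeletal muscle (1 of 8 called higher), epithelium (2 of 8 higher, 1 lower), endothelium (1 of 7 higher, 1 lower), erythroid cells (0 of 3, limma, with 1 lower at an unadjusted p under 0.05) and neural cells (1 of 8 higher) were also counted. Over all genes, limma called 5.21% higher and 6.95% lower in KO, and 15.2% were lower at an unadjusted p under 0.05. Alternatives were other summaries of probe sets, quantile normalisation, subtraction of array medians, array weights, a robust variance prior and leaving out each line.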

Additional observations from a re-analysis of the deposited data

How the results depend on the processing

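With 2 lines per genotype, leaving out 1 line leaves 1 residual degree of freedom, and the lone line is assumed to vary like the others. The number of enzymes called higher in KO was then 0 in every case, against 1 with all 4 lines, and over all genes limma called 0 without KO line 2, 321 without KO line 4, 1 without WT line 5 and 0 without WT line 6 (3296, 3717, 4486 and 5418 at an unadjusted p under 0.05). The number at least 1.5-fold apart without overlap ran from 0 to 3 and the median over the enzymes from 0.14 to 0.43. Called genes of the related lists ran from 0 to 1 higher and from 0 to 2 lower, against 4 and 5. Prps1 (gene mean and 1416052_at) ran from -0.081 without WT line 5 to 0.33 without WT line 6, and Gmps 1433567_at from -0.014 to 0.28 likewise. Phf12 1453579_at ran from -0.051 without WT line 6 to 0.075 without WT line 5. Quantile normalisation called 1 enzyme lower (Paics), 7 related genes higher and 7 lower (against 4 and 5) and, among the probe sets, Pfas 1455496_at, Gart 1416283_at and Paics 1423564_a_at. The median of the probe sets gave 2 enzymes at least 1.5-fold apart and -1.01 for Paics minus Ppat. The cause of these shifts was not tested. Of the 9 enzymes' gene means, all but Prps1 kept their sign under every alternative run. No paired analysis was possible because no line number occurs in both genotypes. Without signal levels, dim probe sets could not be left out.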
